A study of Mus musculus with 2 samples.

Results

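The Hoxb cluster is the run of 10 Hox genes on mouse chromosome 11: Hoxb1 to Hoxb9 and Hoxb13. They are described here by the H3K27me3 peaks that overlapped each annotated gene span or the 2 kb on either side of it, and by the peaks between the genes. The members were taken by name from 21887 protein-coding genes, as the full set of Hoxb genes, and all 10 were found in the annotation. H3K27me3, trimethylation of lysine 27 on histone H3, was measured by ChIP-seq, the sequencing of chromatin pulled down with an antibody. The tissue was unsorted sciatic nerve from male mice of strain C57/BL6 at 8 weeks of age, with no genetic change or treatment named in the labels. There was 1 ChIP library, made with an H3K27me3 antibody, and 1 input library of the same tissue, strain, sex and age. The sources used here do not say how many animals stand behind each. Without replicates no difference below could be set against variation between animals, and no p-values were computed. Peaks report a histone mark and not RNA, so the tissue label could not be checked against cell type markers.

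Hox genes encode homeodomain transcription factors that give cells their position along the head-to-tail axis. Within a cluster the low-numbered genes are switched on first and furthest towards the head, and the high-numbered genes later and closer to the tail. H3K27me3 is written by Polycomb repressive complex 2 and is found over Hox genes that a cell lineage keeps silent, often as broad blocks instead of narrow peaks. Cells of the nerve trunk, among them Schwann cells and fibroblasts, come from neural crest and mesoderm of the body axis and carry a Hox code from their origin. In an unsorted tissue, a mark carried by few cells and a weaker mark carried by many cannot be told apart.

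The deposited list held 6018 peaks, with a median width of 643 bp. Each carries a score from the authors' processing, read here as a number of reads as set out under the processing of the data, with a median of 14 reads and a minimum of 10. Peaks covered 0.310% of the annotated span of the autosomes and 0.486% of that of chromosome 11.

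All 10 Hoxb genes carried the mark, but unevenly, in a pattern of covered ends and a thin stretch between them. Hoxb13, Hoxb8 and Hoxb1 lay wholly under a peak, Hoxb7 and Hoxb9 mostly so, and Hoxb3 and Hoxb4 carried the least by share of their span. Every member had a peak within 2 kb (10 of 10), where 10.5% of protein-coding genes did. Without the flanks it was also 10 of 10, against 9.77%. In 7 of 10 members at least 50% of the span was covered, against 1.15% of protein-coding genes. The full span was covered in 3 members, against 0.27% of protein-coding genes. The median share covered was 65.5% over the 10 members and 3.24% over the protein-coding genes with a peak within 2 kb. Over all protein-coding genes it was 0%, because most had no peak. A short gene is filled by a single peak more easily than a long one, and the spans here ran from 2295 bp (Hoxb13) to 40830 bp (Hoxb3).

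**Figure D1:**
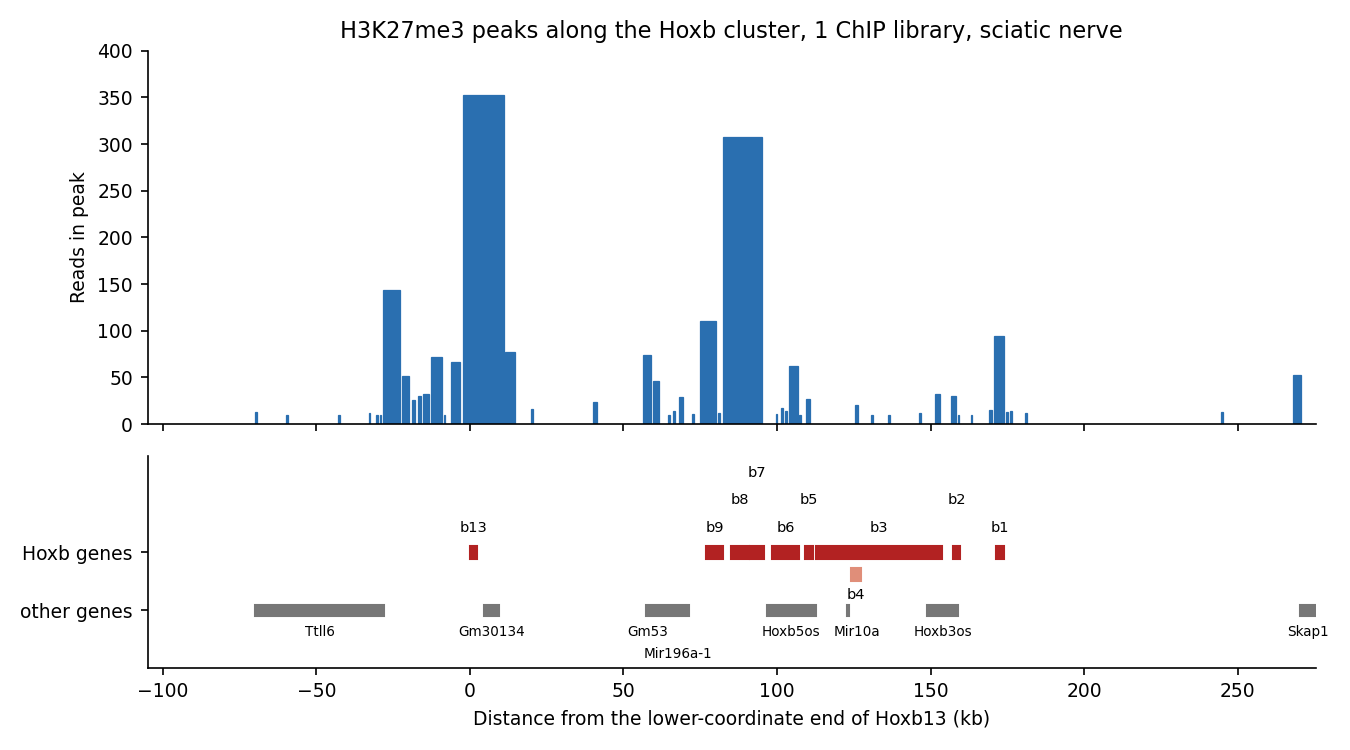
Each blue bar is a deposited peak, drawn at its true width against distance from the lower-coordinate end of Hoxb13 in kb, with its reads as height. The Hoxb genes (red, labelled b13 to b1) and some other annotated genes (grey) are drawn below. The tallest peaks, of 353 and 308 reads, lie over Hoxb13 and over Hoxb8 and Hoxb7, and the span of Hoxb3 holds only peaks of 32 reads or fewer.

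From the first base of Hoxb13 to the last of Hoxb1 the cluster spans 173939 bp (chromosome 11, 96194316 to 96368254, mm10). It held 29 peaks with 1468 reads, and 33.8% of its bases lay under a peak, 109 times the autosomal share. The 2 peaks with the most reads supplied 45.0% of the reads. Most peaks of the cluster were small: the median was 810 bp and 17 reads, 10 were only 500 bp wide, the minimum of the list, and 8 held 10 or 11 reads. Counting error alone puts a peak of 10 reads anywhere between 4.80 and 18.4 (95% Poisson, exact), so single small peaks are imprecise. The 8 peaks over 2 kb made up 73.2% of the length of the cluster's peaks.

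The cluster stood out in the share of its bases under peaks more than in how densely reads lay in them. In width the difference was modest, with a median of 810 bp against 643 bp for the whole list. Of its 29 peaks 10 were 500 bp wide, against 41.6% of the whole list. The cluster's peaks had a median of 21.3 reads per kb of peak, close to the 21.0 of the whole list. Among peaks over 2 kb, the cluster's 8 ran from 20.9 to 28.8 reads per kb, while the 877 in the whole list had a median of 23.4 (quartiles 20.8 and 26.2). The shortest peaks must hold at least 10 reads to be listed, which fixes the density of narrow peaks from below.

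Hoxb13, the most tail-ward member, a regulator of tail and prostate development, stands apart from the other genes at one end of the cluster. Its gene (96194316 to 96196610) lay inside 1 peak of 13086 bp (96192166 to 96205251) that held 353 reads (exact 95% Poisson interval 317 to 392). That peak was the 14th widest of the 6018, with a density of 26.98 reads per kb (24.2 to 29.9). The same peak covered the whole of the neighbouring long non-coding RNA gene Gm30134 and 88.7% of another, Gm11538. Only 11 protein-coding genes, Hoxb13 included, had as many peak reads per kb over the span and its 2 kb flanks (26.98).

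Hoxb9, Hoxb8 and Hoxb7, which pattern the thoracic level of the trunk and its skeleton, were next along the chromosome and shared a peak. This peak (96276885 to 96289278) was 12394 bp wide, ranked 21st in width, and held 308 reads (275 to 344). It contained all of Hoxb8 (96279401 to 96285325), a gene also known for holding myeloid progenitors undifferentiated when forced on. It covered 80.6% of Hoxb7 (96285604 to 96290163), whose regulatory sequence is widely used to mark the ureteric bud. It began just beyond the end of Hoxb9, within its 2 kb flank.

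Hoxb9 itself (96271330 to 96276595) was 71.9% covered by other peaks, of 5273 bp with 110 reads and of 500 bp with 12 reads. The sum for Hoxb9 with flanks, 430 reads, was the highest of the 10 members, but 308 of these belong to the peak over Hoxb8. Over the gene span alone Hoxb9 had 122 reads. Whole-peak sums therefore overstate Hoxb9 and Hoxb7. If reads are spread evenly within each peak, 165 fell inside Hoxb9 with its flanks, 141 in Hoxb7, 247 in Hoxb8 and 170 in Hoxb13.

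Hoxb6 and Hoxb5, expressed in trunk mesoderm and, for Hoxb5, in the vagal neural crest that forms gut neurons, were covered about as much as they were bare. Hoxb6 (96292814 to 96301569) had 52.9% of its span covered by 5 peaks with 114 reads (94.0 to 137). The widest of these, 2755 bp with 62 reads, lay towards its upper-coordinate end. Hoxb5 (96303512 to 96306121) had 46.3% covered by a peak of 1209 bp with 27 reads, and 37 reads in 2 peaks with the flanks included. The 2650 bp between Hoxb7 and Hoxb6 held no peak, so the block over Hoxb7 to Hoxb9 ended before Hoxb6.

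Hoxb4 and Hoxb3 carried the thinnest cover of the cluster. Hoxb4 (96318267 to 96321638), known for expanding blood stem cells when overexpressed, had 1 peak of 985 bp with 20 reads (12.2 to 30.9), covering 29.2% of its span. Hoxb3 (96307101 to 96347930), a hindbrain patterning gene, had 9.85% of its span covered by 5 peaks with 84 reads. With flanks the sum was 111 reads in 6 peaks, but the sixth, of 27 reads, lay inside Hoxb5 and only touched the Hoxb3 flank. The annotated span of Hoxb3 encloses Hoxb4, so the Hoxb4 peak is counted for both. The widest peak in Hoxb3 measured 1535 bp with 32 reads, and 3 of its peaks were 500 bp wide with 10 to 12 reads.

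Around them lay a stretch of 14567 bp without a peak, running from inside Hoxb5 to inside Hoxb4 (96305107 to 96319673). It was the third longest gap of the cluster and the longest that overlapped a Hoxb gene. A further gap of 9493 bp lay inside Hoxb3. In both, H3K27me3 was below what the authors' calling listed, which is not the same as absent.

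The mark was denser again at the head-ward end. Hoxb2 (96351632 to 96354020), which acts with Hoxb1 in the hindbrain segment that forms the facial nerve, had 59.1% of its span under 2 peaks with 40 reads (28.6 to 54.5). Hoxb1 (96365746 to 96368254), the identity gene of that segment, lay entirely within a peak of 3392 bp with 94 reads, at 27.7 reads per kb (22.4 to 33.9). With its flanks, Hoxb1 had 122 reads in 3 peaks, none shared with another member. Over the bare gene span, Hoxb1 had the highest density of peak reads of the 10 members, at 27.7 per kb, beside 26.98 for Hoxb13 and 24.9 for Hoxb8. The Poisson intervals of these 3 peaks overlap, so their order was not resolved at this depth. With the 2 kb flanks included, Hoxb1 had only 18.0 peak reads per kb, beside 26.98 for Hoxb13 and 24.9 for Hoxb8. The flanks of Hoxb13 and Hoxb8 were fully covered, and those of Hoxb1 were not.

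Hoxb1 is thus an exception to any steady decline of the mark from the tail-ward to the head-ward genes. From the highest to the lowest gene number, the share of the span covered was 100% for Hoxb13, 71.9% for Hoxb9, 100% for Hoxb8 and 80.6% for Hoxb7. It was 52.9% for Hoxb6, 46.3% for Hoxb5, 29.2% for Hoxb4 and 9.85% for Hoxb3. It was 59.1% for Hoxb2 and 100% for Hoxb1. With all listed peaks, the values fell in every step from Hoxb8 to Hoxb3 and rose in the last steps to Hoxb2 and Hoxb1. The rise from Hoxb3 to Hoxb2 sets a span of 40830 bp beside one of 2389 bp. Peak reads over the span were 84 for Hoxb3 and 40 for Hoxb2, whereas reads per kb of span rose from 2.06 to 11.7. The step from Hoxb6 to Hoxb5 depended on small peaks. With peaks of at least 20 reads Hoxb6 was at 31.5%, below Hoxb5 at 46.3%, so the fall was not steady. Hoxb4 lies inside the annotated span of Hoxb3, so those 2 are not separate steps along the chromosome.

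**Figure D2:**
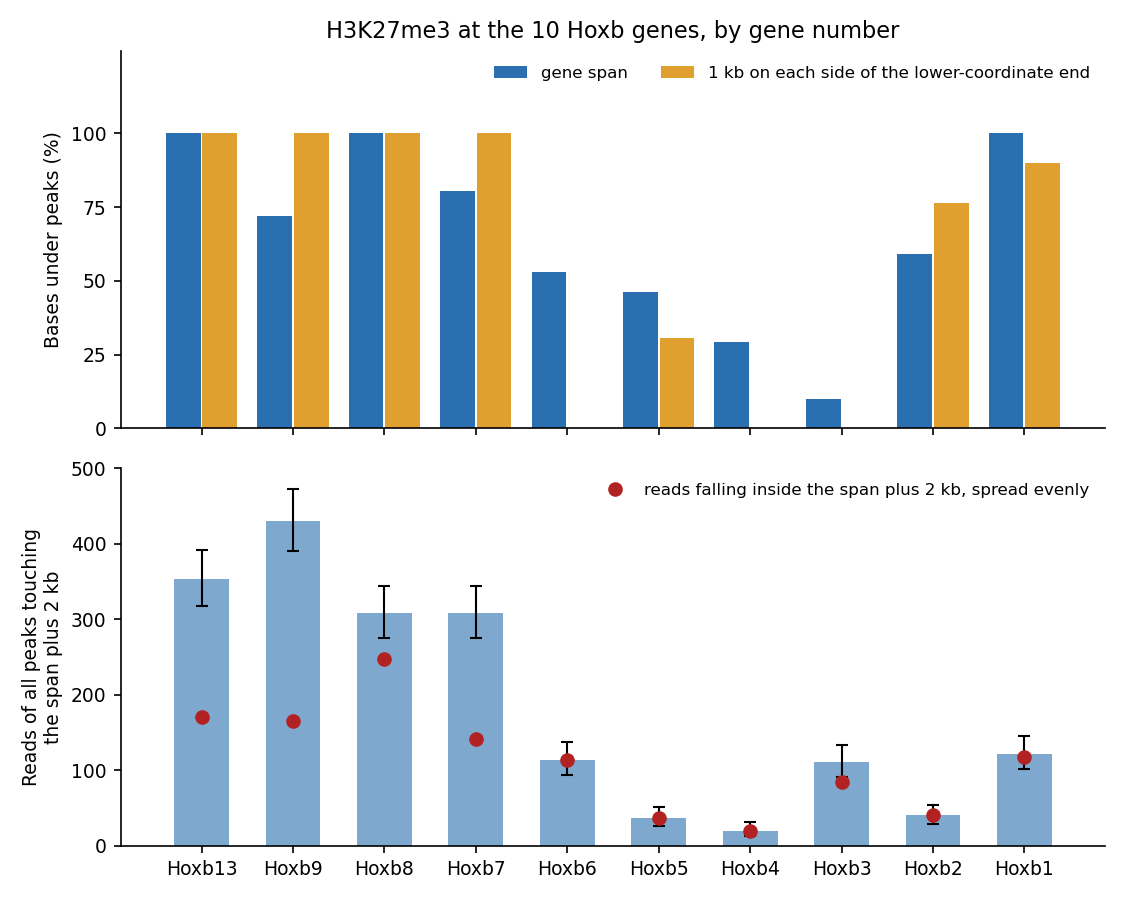
Top, percent of bases under peaks for each Hoxb gene span (blue) and for the 1 kb on each side of its lower-coordinate end (orange). Bottom, reads of all peaks that touch the span plus 2 kb, with exact 95% Poisson intervals (counting error only), and red points for the reads that fall inside if spread evenly within peaks. Hoxb13, Hoxb8 and Hoxb1 reach 100% of the span, while Hoxb4 and Hoxb3 stay at 29.2% and 9.85%.

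Of the 20 peaks that touched a member or its flanks, 4 touched more than 1 member, so the members are not independent measurements. Counting only peaks that touched a single member, 6 of 10 genes kept a peak. Hoxb4, Hoxb5, Hoxb7 and Hoxb8 had shared peaks only. Hoxb4 with its flanks lies inside the Hoxb3 span, so it could not keep a peak under this rule. Hoxb7 and Hoxb8 lie 278 bp apart, so their flanks overlap. The count therefore depends on how the genes lie, and it was not computed over all protein-coding genes. With peaks of at least 20 reads, all 10 members still had a peak, where 5.46% of protein-coding genes did. At that limit the share covered was 31.5% for Hoxb6, 38.2% for Hoxb2, 62.4% for Hoxb9 and 6.17% for Hoxb3, while Hoxb1, Hoxb4, Hoxb5, Hoxb7, Hoxb8 and Hoxb13 were as before.

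Transcription start sites were set beside the gene spans where possible. RefSeq promoter windows (GRCm38.p6, the build also called mm10), running from 250 bases before to 50 after a start, were at hand for 3 of the 10 members, Hoxb1, Hoxb4 and Hoxb8, all on the plus strand. The windows of Hoxb1 and Hoxb8 lay wholly under a peak and that of Hoxb4 under none, so 2 of 3 were touched, against 3.98% of 32851 promoter windows. The nearest peak to the Hoxb4 window was 1358 bp away, inside the gene. Widening to 1 kb on each side of the start left Hoxb4 at 0%, Hoxb1 at 90.6% and Hoxb8 at 100%, where 5.83% of all starts were touched. The windows are shown because they hold the contrast between covered and bare starts. Each reads 5′ to 3′ with every CpG dinucleotide, the sequence element that CpG-rich Polycomb targets share, in capitals.
Hoxb1, under a peak, chr11:96365508-96365807, plus strand: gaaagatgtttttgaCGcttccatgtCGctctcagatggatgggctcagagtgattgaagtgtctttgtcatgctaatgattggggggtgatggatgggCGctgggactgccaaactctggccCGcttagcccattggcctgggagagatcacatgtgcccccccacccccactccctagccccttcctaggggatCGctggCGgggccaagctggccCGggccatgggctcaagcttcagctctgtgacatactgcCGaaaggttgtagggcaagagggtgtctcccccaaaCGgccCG
Hoxb8, under a peak, chr11:96281655-96281954, plus strand: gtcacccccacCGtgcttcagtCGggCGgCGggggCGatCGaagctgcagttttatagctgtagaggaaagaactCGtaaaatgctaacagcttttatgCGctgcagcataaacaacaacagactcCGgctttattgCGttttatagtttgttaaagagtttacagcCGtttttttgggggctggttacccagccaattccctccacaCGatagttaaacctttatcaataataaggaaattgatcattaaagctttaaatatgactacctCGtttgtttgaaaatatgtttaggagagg
Hoxb4, not under a peak, chr11:96318017-96318316, plus strand: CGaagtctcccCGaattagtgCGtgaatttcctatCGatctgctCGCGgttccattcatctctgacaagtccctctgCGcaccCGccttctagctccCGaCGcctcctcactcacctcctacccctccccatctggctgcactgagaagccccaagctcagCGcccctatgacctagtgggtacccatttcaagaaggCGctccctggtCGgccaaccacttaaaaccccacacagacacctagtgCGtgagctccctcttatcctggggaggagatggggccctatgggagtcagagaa

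CpG number did not separate the bare window from the covered ones. Hoxb4 had 14 CpG, Hoxb8 13 and Hoxb1 10. All promoter windows had a median of 7, and the 1306 windows touched by a peak a median of 17 (quartiles 10 and 26). The Hoxb1 count thus stood at the lower quartile of touched windows. Base composition differed more: G and C made up 42.3% of the Hoxb8 window, 58.0% of Hoxb4 and 59.3% of Hoxb1, with medians of 52.7% over all windows and 61.7% over touched ones. The ratio of observed to expected CpG, given the G and C present, was 0.970 for Hoxb8, 0.593 for Hoxb4 and 0.380 for Hoxb1.

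**Figure D3:**
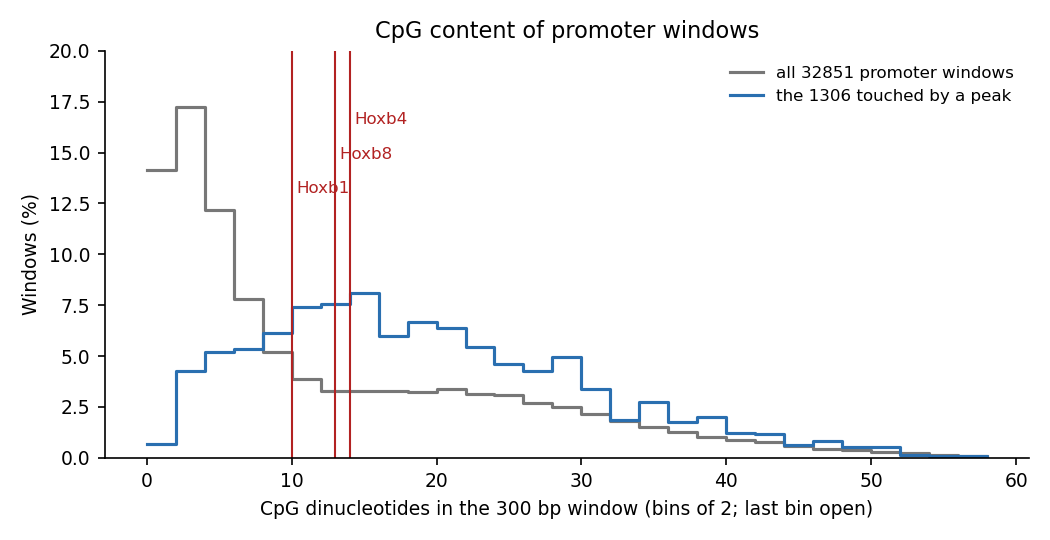
Distribution of CpG dinucleotides per 300 bp promoter window, as percent of windows, for all windows (grey) and those touched by a peak (blue). Red lines mark Hoxb1 (10), Hoxb8 (13) and Hoxb4 (14), which lie close together although only the Hoxb4 window is free of peaks.

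Of the short motifs searched on both strands, none matched in all 3 windows, and every match fell in a covered window. With only 3 windows, no link to the mark can be read from this. TATAAA, the core of the TATA box, matched 2 times in Hoxb8 and in neither of the other two, and occurs in 13.6% of all windows. CCAAT matched 2 times in Hoxb1 and 1 time in Hoxb8, against 37.4% of all windows with a match. TGATNNAT, a form of the joint site of Hox and Pbx proteins, matched 1 time each in Hoxb1 and Hoxb8 (8.85% of all windows). The Hoxb4 window held none of these letters, which says nothing about which factors bind there. Matches of different motifs may share bases.

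For the other 7 members no start window was used, and the 1 kb on each side of the lower-coordinate end of the gene was taken, which is the 5′ end when a gene lies on the plus strand, as Hoxb1, Hoxb4 and Hoxb8 do. These windows were fully covered in 4 of 10 genes, Hoxb13, Hoxb9, Hoxb8 and Hoxb7. They were covered by 90.0% in Hoxb1, 76.4% in Hoxb2 and 30.7% in Hoxb5. They held no covered base in Hoxb6, Hoxb4 and Hoxb3. No share over all protein-coding genes was computed for such windows, and those of Hoxb8 and Hoxb7 lay in the same peak. The annotated spans include alternative upstream starts: the Hoxb8 start of the promoter table lies at 96281905, inside the annotated gene. The lower end of Hoxb6 or Hoxb3 need not be the start that nerve cells use.

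Between the genes, most covered bases lay in the long interval beside Hoxb13, which also makes up most of the intervals' length. The 8 intervals between neighbouring members summed to 98799 bp, of which 29.7% was covered, against 39.2% of the gene spans. The interval from Hoxb13 to Hoxb9, 74719 bp, held 11 peaks and was 31.3% covered. Its larger peaks lay towards its 2 ends. Stretches of 19540 bp and 15149 bp without a peak, the longest of the cluster, lay in its middle on either side of a peak of 24 reads. The intervals of 2805 bp between Hoxb9 and Hoxb8 and of 278 bp between Hoxb8 and Hoxb7 were covered by 89.7% and 100%. The intervals from Hoxb3 to Hoxb2 and from Hoxb2 to Hoxb1 were covered by 16.7% and 18.0%, and that between Hoxb5 and Hoxb3 held no peak.

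Beyond the cluster the mark was lopsided. In the 100 kb below Hoxb13, 24.2% of bases were covered, against 5.23% in the 100 kb above Hoxb1. With peaks merged when at most 5 kb apart, the block over Hoxb13 began 32937 bp before the gene and reached into Ttll6, which encodes a tubulin polyglutamylase. On the other side, peaks ended 7497 bp past Hoxb1 and the next 63271 bp held none. The next protein-coding gene on that side, Skap1, an adaptor of T cell adhesion, had 2.81% of its span covered, and Calcoco2, an autophagy receptor gene beyond Ttll6, had 0.799%. Of the 15 other annotated genes that overlapped the cluster or lay within 100 kb, 13 had a peak within 2 kb. The exceptions were Mir10a, inside the cluster, and the pseudogene Gm11531, above it. Gm30084, Gm11539 and Mir196a-1 had peaks in their flanks only. Over all protein-coding genes the share was 10.5%, and none was computed for non-coding genes. These genes were taken for lying in or near the cluster, so the count is not a separate result about them.

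The segments ranked the same by covered bases and by reads. From Hoxb9 to Hoxb5, 64.6% of 34792 bp was covered, at 15.2 peak reads per kb of the segment. From Hoxb3 to Hoxb1, 17.4% of 61154 bp was covered, at 3.94 reads per kb. The interval beside Hoxb13 had 7.70 reads per kb, the 100 kb below it 5.55 and the 100 kb above Hoxb1 1.07.

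**Figure D4:**
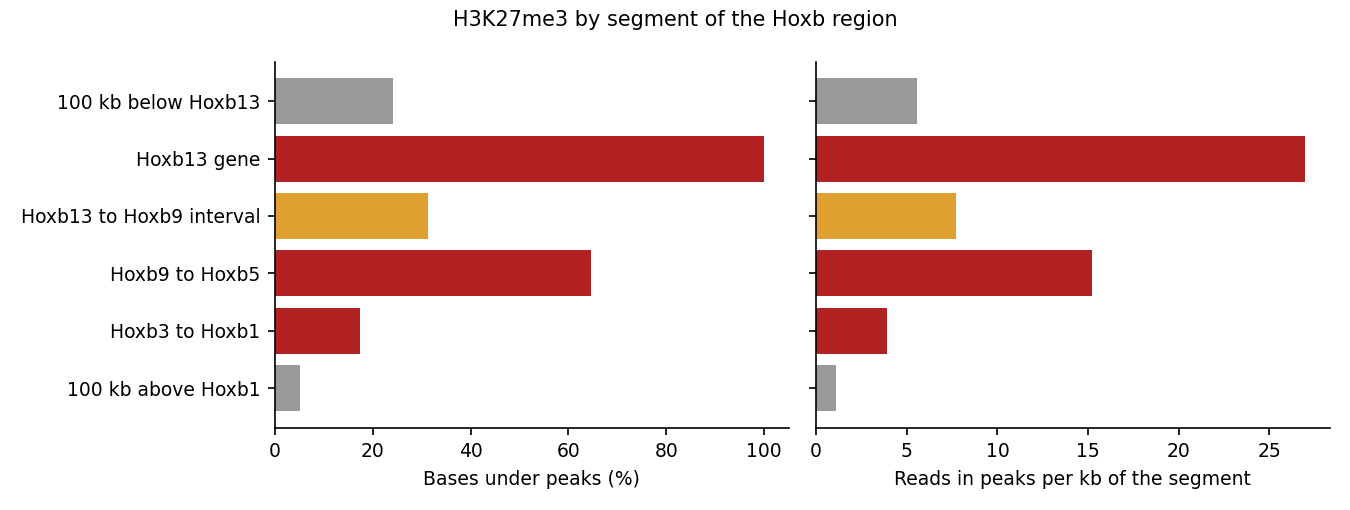
Percent of bases under peaks (left) and peak reads per kb (right) for 6 segments in chromosomal order: Hoxb genes with the intervals among them (red), the interval between Hoxb13 and Hoxb9 (orange) and the flanking 100 kb (grey). Hoxb9 to Hoxb5 reaches 64.6% and Hoxb3 to Hoxb1 17.4%.

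How many blocks the cluster forms depended on the distance at which peaks were joined. Joined within 1 kb, there were 13 blocks that overlapped a member, of 21 in and around the cluster. Within 5 kb there were 5 of 7, and Hoxb9 to Hoxb5 became 1 block. Within 10 kb there were 3 of 4: 1 with Hoxb13, 1 with Hoxb9 to Hoxb5, and 1 with Hoxb4, Hoxb3, Hoxb2 and Hoxb1. At 5 and 10 kb the block of Hoxb9 to Hoxb5 had the same borders (96250745 to 96305106), beginning before Hoxb9.

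Other annotated genes inside the cluster are non-coding RNAs and 1 pseudogene, and 8 of these 9 had a peak within 2 kb, against 10.5% of protein-coding genes. They lie among the cluster's own peaks, and no share over all non-coding genes was computed. Gm53, between Hoxb13 and Hoxb9, had 49.0% of its span under 5 peaks with 173 reads, among them the peak with the highest density of the cluster's peaks over 2 kb, 28.8 reads per kb (22.6 to 36.1). Hoxb5os and Hoxb3os, transcripts named for the genes they overlap, had 39.7% and 32.3% covered. A histone mark has no strand, so cover there cannot be assigned to these or to the Hoxb genes.

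The 2 microRNA genes of the cluster lay outside peaks, and their products are shown for that reason. Peaks covered only 33.8% of the cluster, so most of its bases lay outside them too. No share over all microRNA genes was computed, so this is not a result about microRNAs. Mir10a lay in the stretch of 14567 bp without a peak, whereas Mir196a-1 lay between nearby peaks. Each mature strand is printed 5′ to 3′ with the seed, bases 2 to 8, in capitals (RefSeq, GRCm38.p6). The seeds differ from each other, and microRNAs of both families are known to target Hox transcripts. Mir10a, just upstream of Hoxb4, was the gene inside the cluster without a peak within 2 kb; its nearest was 2400 bp away. Mir196a-1, before Hoxb9, was 1462 bp from its nearest peak and had 2 peaks with 40 reads within 2 kb.
mmu-miR-10a-5p, chr11:96317186-96317208: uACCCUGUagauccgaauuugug
mmu-miR-196a-5p, chr11:96265187-96265208: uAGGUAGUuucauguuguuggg

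Against the other Hox clusters, Hoxb had the smallest share of its length covered but the highest mean cover of its genes, just above Hoxd. Peaks covered 33.8% of Hoxb, 37.1% of Hoxc, 42.6% of Hoxa and 52.4% of Hoxd. Peak reads per kb of cluster were 8.09 in Hoxb, 8.45 in Hoxc, 10.1 in Hoxa and 13.1 in Hoxd. The mean share of a gene span covered was 65.0% over the 10 Hoxb genes, 64.3% over 9 Hoxd, 55.4% over 11 Hoxa and 44.6% over 9 Hoxc genes. By peak reads per kb of gene span Hoxd came first, with a median of 17.2, beside 13.6 in Hoxb, 11.7 in Hoxa and 5.37 in Hoxc. Hoxb is also the longest cluster, and 43.2% of it is gene span. Without Hoxb13 and the interval beside it, the covered share of Hoxb was 34.2%.

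Set beside the paralogs, the reported genes of the same number in other clusters, Hoxb members had a larger covered share in 16 of 20 pairs and a smaller one in 4. By peak reads per kb of span, some of the pairs with a larger share turned round. Hoxb2 had 11.68 beside 11.72 for Hoxa2, and Hoxb9 15.3 beside 17.0 for Hoxa9. Hoxb4 had 5.93 beside 6.43 for Hoxa4 and 6.13 for Hoxd4. All other pairs kept their order. Hoxb1 was at 100%, against 48.1% for Hoxd1. Hoxb8 was also at 100%, against 63.6% for Hoxc8 and 45.7% for Hoxd8. Hoxb13 exceeded Hoxc13 (91.7%), Hoxa13 (75.0%) and Hoxd13 (58.6%). These are the members that lay wholly under 1 peak.

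Hoxb3 was the reverse, with 9.85% covered against 36.6% for Hoxd3 and 34.1% for Hoxa3, which have similarly long annotated spans. The remaining pairs in which Hoxb had the lower covered share were Hoxb6 (52.9%) beside Hoxa6 (95.7%) and Hoxb9 (71.9%) beside Hoxd9 (100%). Hoxb4 (29.2%) lay near Hoxd4 (25.4%) and Hoxa4 (24.7%) and above Hoxc4 (6.25%). Hoxb2 (59.1%) lay near Hoxa2 (53.9%), and Hoxb7 (80.6%) near Hoxa7 (73.4%). Hoxb5 (46.3%) lay near Hoxa5 (41.2%), whereas Hoxc5 had no peak. No replicate spread exists against which any pair could be tested.

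**Figure D5:**
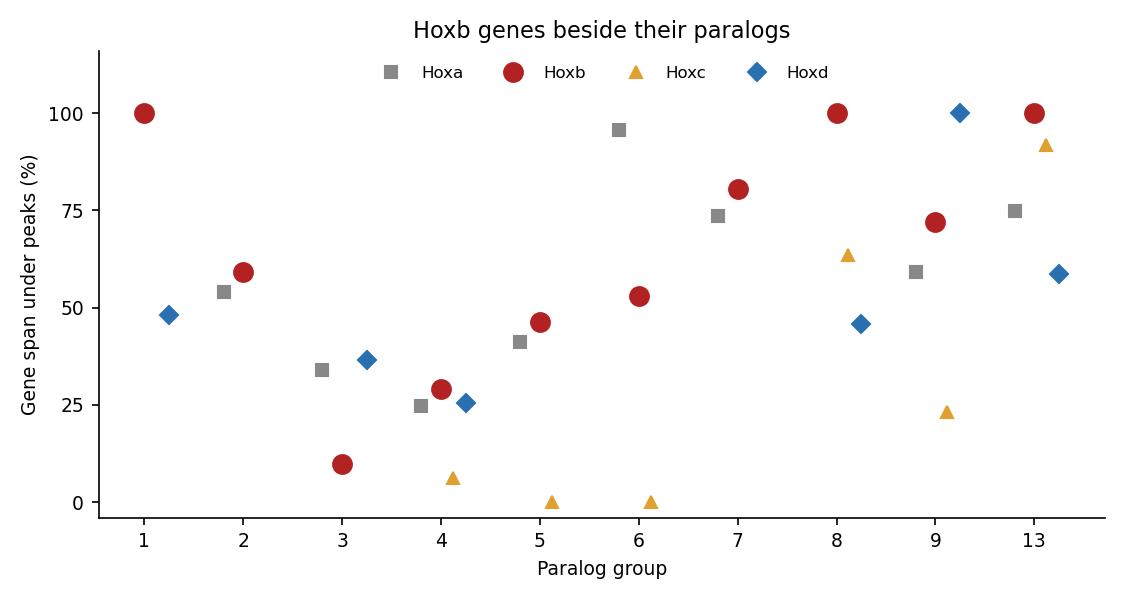
Percent of each gene span under peaks for the 10 paralog groups that include a Hoxb gene, by cluster (Hoxb as red circles). Hoxb1, Hoxb8 and Hoxb13 sit at 100% above the paralogs shown, and Hoxb3, at 9.85%, sits below both of its own.

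Among the 24 promoter windows of Hox genes in all 4 clusters, 20 were touched by a peak, against 3.98% of all windows. Hoxa10 and Hoxd11 have 2 windows each. The 4 bare windows belonged to Hoxb4, Hoxd4, Hoxa5 and Hoxa7, the last 3 named after their values were seen.

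Outside the Hox clusters, the genes most like the median Hoxb member in covered share and in peak reads per kb of span were Fzd10, a Wnt receptor gene (66.6% and 13.3), Bhlha9, a limb transcription factor gene (66.3% and 13.3), and Gpr25, a G protein-coupled receptor gene (64.3% and 13.3). The Hoxb medians were 65.5% and 13.6 reads per kb. Likeness was the distance in these 2 measures, each divided by its standard deviation over genes with a peak, in 1 library.

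Genes that control Hox genes or partner their proteins were marked in part. Of 42 such genes, 12 had a peak within 2 kb, against 10.5% of protein-coding genes. The share was 28.6% (exact 95% Clopper-Pearson interval 15.7 to 44.6, counting error only). The list was chosen with earlier results of these data known, and some of its genes share a peak, so the interval is no test of enrichment. The median share of the span covered over the 42 was 0%, as over all genes. The retinoic acid-degrading enzyme genes Cyp26b1, Cyp26c1 and Cyp26a1, which shape the retinoic acid that turns on head-ward Hox genes, had 299, 185 and 156 reads, counting whole peaks here and below. Cyp26c1 and Cyp26a1 are neighbours and the largest of their peaks was counted for both. Gbx2, a hindbrain boundary factor gene, lay wholly under a peak with 398 reads, and Cdx2, an activator of trunk Hox genes, had 190 reads and 91.7% of its span covered.

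Of the genes for Hox cofactors, Meis2 was marked with 196 reads in 5 peaks, over 2.34% of its long span. Meis1, Meis3, Pbx2, Pbx3 and Pbx4, whose proteins bind DNA together with Hox proteins, had no peak. Bmi1, a Polycomb complex gene, was counted for the edge of a peak of 147 reads that lay mostly beyond its flank; spread evenly, 7.41 of these reads fell within the 2 kb. Named after their values were seen, the retinoic acid synthesis gene Aldh1a2 had 96 reads, and Cdx1 and Egr2, a direct activator of Hoxb2 in the hindbrain and of myelin genes in the nerve, 18 each.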

How the data were processed

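The authors aligned reads with Bowtie to mm10, per the submitters' processing notes. The sources used here do not give the version, the peak caller, its threshold or the use of the input. Chromatin was crosslinked in 1% formaldehyde for 10 min and sonicated to 0.5 to 2 kb on average, and 300 µg was used with 5 µg of antibody, per the labels' protocols. Fragments of that length blur peak borders.

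The deposited score of each peak has no stated meaning. Of the 6018 scores, 99.98% were whole multiples of 2.57348 to within 0.05, so each was divided by that step and taken as reads. Input values were not analysed here.

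Spans came from RefSeq (GRCm38.p6), the same build as mm10, which gave no exons. All 42 regulator symbols matched. Overlap of 1 bp counted. Positions are 1-based. Python 3.11.15, numpy 2.4.6, pandas 2.3.3 and scipy 1.17.1 were used. The overlap code was tested on simulated data. Poisson and Clopper-Pearson intervals cover counting error only.

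The members are all Hoxb genes, with no threshold on a measured value, but this set and the lists were chosen with earlier results of these data known. Named genes are all members, annotated genes within 100 kb, paralogs of the same number, the 8 regulators with most reads, the first 6 without a peak, and the 3 most alike genes. Some genes that this rule takes are not reported here. Flank, peak strength and span were varied, and the closing section gives the effect.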

Additional observations from a re-analysis of the deposited data

How the results depend on the processing

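The count of Hoxb genes with a peak stayed at 10 with no flank, flanks of 1 or 5 kb, peaks at or above the median score and peaks of at least 20 reads. It was 7 when 50% of the span had to be covered and 6 when only peaks that touched no other member counted, a setting added once the data had been seen. In that setting Hoxb4, inside Hoxb3, could not be counted. The median share of the span covered, 65.5%, was 54.6% with peaks at or above the median score, 54.4% with peaks of at least 20 reads and 53.1% with 2 kb flanks included. In the same 2 peak selections the cluster was covered by 30.9% and 28.9%, and the intervals between genes by 27.7% and 25.4%. The cluster was covered by 34.2% without Hoxb13 and the interval beside it, and by 34.6% with 2 kb flanks. Median reads per member rose from 118 to 230 with 5 kb flanks, which take in neighbours' peaks. The covered share of Hoxb minus the mean of the other Hox clusters was -10.2 percentage points, -9.34 and -9.05 in the 2 peak selections and -2.47 as reads per kb. It reversed to 10.2 when the share of gene spans was averaged. Hox regulators with a peak numbered 10 to 14 in all settings. Of 86 alternatives for single genes and intervals, 49 stayed within the 95% interval of the reported value and 37 did not. That interval was Poisson for reads and binomial over bases for covered shares, which is narrow because neighbouring bases are not independent. No paired analysis was possible because there is 1 ChIP library. No listed peak held fewer than 10 reads; whether depth or the authors' threshold sets that minimum was not tested.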
